A study of Sus scrofa with 19 samples.

Results

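The genes of de novo fatty acid synthesis, the pathway that builds fatty acids from citrate-derived carbon, were followed in pig longissimus dorsi muscle (LD) across every probe set that represents them on the Affymetrix porcine array. The set was FASN, SCD, ACACA, ACLY, ME1, ELOVL6, SREBF1 and GPAM, and a probe set was taken when the platform annotation gave it exactly 1 of these 8 symbols. This gave 17 probe sets for 7 of the 8 genes, out of 23999 probe sets tested. No probe set carried ACLY as its single symbol, so ATP citrate lyase was not analysed here. All animals were Duroc pigs of a commercial line, raised on pelleted feed, and 190 days old at slaughter. The paper describes the population as barrows of several half-sib families and fattening batches, moved after weaning to a test station. From 350 pigs ranked on 13 traits of carcass, plasma and muscle fat, the upper extreme formed the HIGH group (10 pigs) and the lower extreme the LOW group (9 pigs), with 1 array per pig. Fatness was thus the basis of the groups, which were not set by a treatment. Pigs are numbered within a group only to name them.

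In this pathway, ACLY releases acetyl-CoA from citrate, ACACA carboxylates it to malonyl-CoA, and FASN condenses these units into palmitate using NADPH, part of which malic enzyme (ME1) provides. ELOVL6 lengthens palmitate to stearate, and SCD places a double bond in stearate and palmitate to give oleate and palmitoleate. GPAM starts the esterification of fatty acids to glycerol, and SREBF1 is a transcription factor of lipogenic genes. In pigs, adipose tissue is a main site of this synthesis, and muscle contains adipocytes between its fibres.

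The samples carried the transcripts of muscle: 7 of 12 listed fibre markers had a probe set, and all 7 were above every one of the 17 tag control probe sets, which have no pig target, on all 19 arrays. Each array's highest tag control lay between 2.50 and 2.72 on the deposited log2 scale, and a signal above it is called above background here. A probe set can lie above it at a nearly constant value, so this does not by itself show expression. No 2 arrays were identical, and the lowest correlation between 2 arrays was 0.970. Macrophage markers (7 of 11 with a probe set, summed linear signal 156 to 656 in HIGH and 151 to 570 in LOW) and hepatocyte markers (4 of 4, 101 to 425 in HIGH and 127 to 189 in LOW) overlapped between the groups.

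Of the 17 probe sets, 8 were above background on all 19 arrays (67.5% of all probe sets were), 2 on some arrays and 7 on none (19.5% of all). The 8 belonged to ME1 (2), ELOVL6 (3), SCD (1), FASN (1) and GPAM (1). Levels of different probe sets are not compared with each other, because each binds its own target with its own affinity.

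SCD, FASN and ELOVL6, which desaturate, synthesize and elongate the chain, differed widely between pigs. SCD (Ssc.16159.1.S1_at; Sscrofa11.1 chromosome 14, 111461560 to 111478033) had a log2 signal of 5.07, 8.84 and 12.09 as the lowest, median and highest of the HIGH pigs, and 2.88, 8.14 and 10.74 in the LOW pigs. Its SD over 19 pigs was 2.21, the 3rd largest of 23999 probe sets, for which the median SD was 0.221. FASN (Ssc.18175.1.A1_at; chromosome 12, 922405 to 937560) had 5.07, 7.54 and 8.79 in HIGH and 3.37, 6.91 and 7.81 in LOW. ELOVL6 (Ssc.1008.1.A1_at; chromosome 8, 112038670 to 112190079) had 5.38, 7.01 and 9.69 in HIGH and 3.67, 6.38 and 8.54 in LOW. The ranges of the groups overlapped for all 3 genes, and the SDs of FASN (1.28) and ELOVL6 (1.45) ranked 67th and 32nd.

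**Figure D1:**
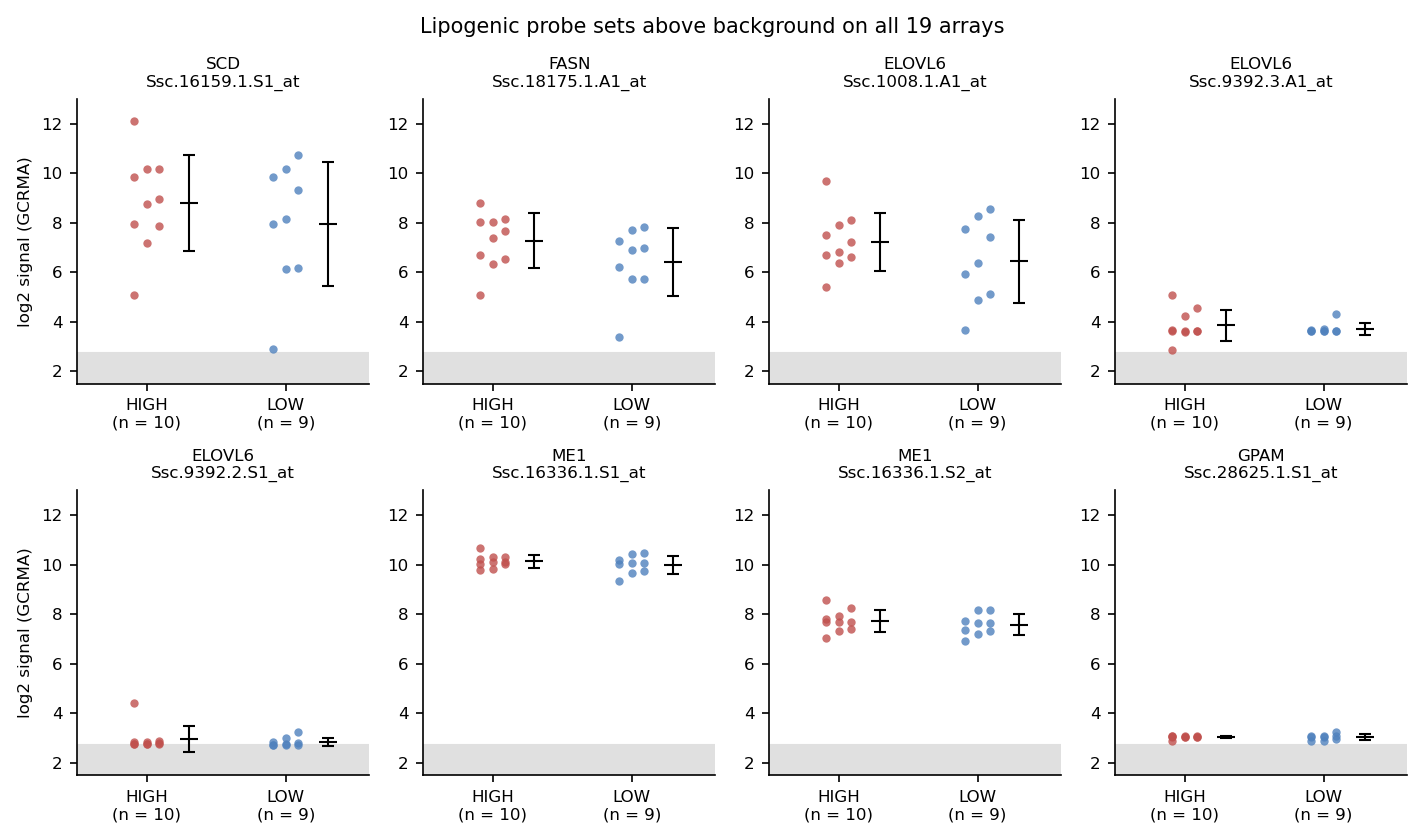
Log2 signal (vertical axis) in each pig (points) of the 8 probe sets above background on all 19 arrays, with HIGH left of LOW and the group mean ± SD beside the points; the grey band ends at the highest tag control of any array (2.72). SCD runs from 5.07 to 12.09 in HIGH and from 2.88 to 10.74 in LOW, whereas GPAM stays between 2.89 and 3.24 in all pigs.

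**Figure D2:**
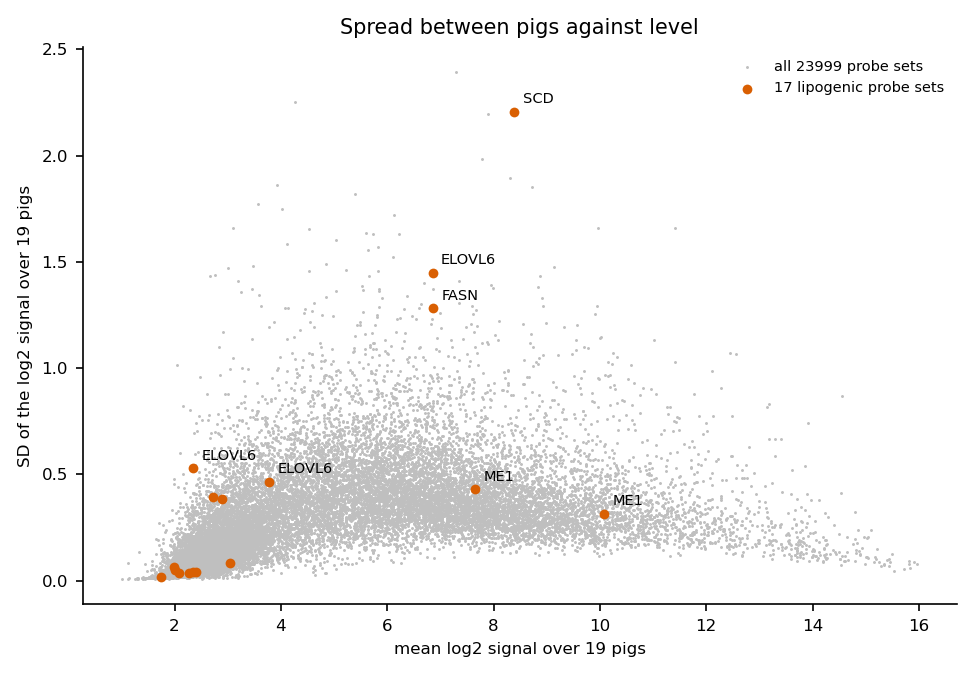
SD over 19 pigs (vertical axis, log2) against mean log2 signal (horizontal axis) for the 23999 probe sets (grey), with the 17 probe sets of the pathway marked. SCD (SD 2.21), ELOVL6 (1.45) and FASN (1.28) lie far above the median SD of 0.221, while the probe sets of ME1 have 0.314 and 0.430.

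The same pigs were high or low in the 3 genes. HIGH pig 6 had the highest signal of SCD (12.09), FASN (8.79) and ELOVL6 (9.69), and also the highest of both ME1 probe sets. LOW pig 1 had the lowest of the 3 (2.88, 3.37 and 3.67). HIGH pig 10 was the next lowest in SCD (5.07) and FASN (5.07), and LOW pig 8 was the second highest in SCD (10.74) and ELOVL6 (8.54). Among the 5 highest pigs of each gene, 4 were shared by SCD, FASN and ELOVL6 (3 HIGH, 1 LOW), and 4 were shared among the 5 lowest (1 HIGH, 3 LOW).

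Across the 19 pigs SCD was closely correlated with ELOVL6 (r = 0.962, rho = 0.940) and with FASN (r = 0.957, rho = 0.914), and FASN with ELOVL6 (r = 0.929, rho = 0.914). Of 21 pairs of genes, each represented by its probe set of highest mean, only these 3 passed the permutation test with Benjamini-Hochberg adjustment (p = 1e-05, the smallest that 100000 resamples can give; adjusted p = 7e-05 for r and for rho). Without HIGH pig 10 and LOW pig 1, the 2 farthest from the median of SCD, r was 0.910 between SCD and FASN and 0.960 between SCD and ELOVL6. The same 2 pigs lay farthest from the median of FASN, and without them r between FASN and ELOVL6 was 0.911. Within HIGH r was 0.968 for SCD with FASN, 0.965 for SCD with ELOVL6 and 0.902 for FASN with ELOVL6, and within LOW it was 0.963, 0.963 and 0.942. The labels give no batch, date or family for single pigs, so no within-batch value could be computed.

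**Figure D3:**
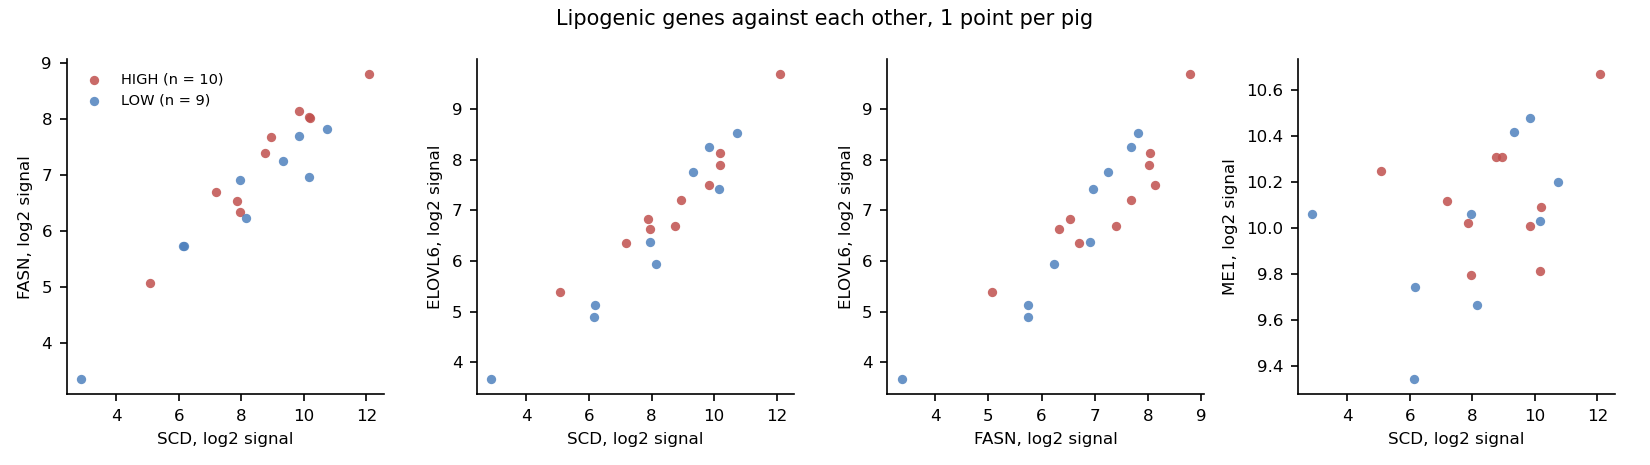
Log2 signals of 2 genes plotted against each other, with a point for each pig (HIGH and LOW in different colours), for SCD with FASN, SCD with ELOVL6, FASN with ELOVL6 and SCD with ME1. The first 3 panels have r of 0.957, 0.962 and 0.929, and the last has r of 0.413.

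By regression over the 19 pigs, SCD changed by 1.65 log2 units per unit of FASN and by 1.47 per unit of ELOVL6, and ELOVL6 changed by 1.05 per unit of FASN. Among the other 23998 probe sets, the brightest of ELOVL6 and the brightest of FASN had the highest r to SCD. No other reached r = 0.9. The dimmer ELOVL6 probe sets had r of 0.677, 0.535 and 0.488 with SCD, and the dimmer FASN probe sets 0.665, 0.27 and 0.109. Of the latter, Ssc.25076.2.S1_at (0.27) and Ssc.16368.1.S1_at (0.109) were never above background. A correlation of at least 0.8 was reached by 5 probe sets with SCD, 5 with FASN and 10 with ELOVL6.

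ME1, the NADPH-supplying malic enzyme (chromosome 1, 82799878 to 82989895), varied less, with an SD of 0.314. Its probe set Ssc.16336.1.S1_at gave 9.79, 10.11 and 10.67 as the lowest, median and highest signal in HIGH and 9.34, 10.06 and 10.48 in LOW. The other, Ssc.16336.1.S2_at, averaged 7.74 ± 0.45 in HIGH and 7.57 ± 0.42 in LOW (SD, n = 10 and 9). The groups overlapped in both. The r of the brighter one was 0.573 with ELOVL6, 0.424 with FASN and 0.413 with SCD, and none of these passed the adjustment (permutation test, adjusted p = 0.0554, 0.274 and 0.274). Without HIGH pig 10 and LOW pig 1, r with SCD was 0.670 (permutation test, adjusted p = 0.013) and r with FASN was 0.723 (adjusted p = 0.00593), so whether these relations passed depended on those 2 pigs. Without HIGH pig 6 and LOW pig 1, r with ELOVL6 was 0.567 (adjusted p = 0.0593).

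The difference between HIGH and LOW did not pass the test for any of the 17 probe sets. In the limma fit with Benjamini-Hochberg adjustment the smallest adjusted p over all probe sets was 0.993, so 0 of 17 were called (0% of all 23999). At unadjusted p under 0.05, 1 of the 17 was called (3.51% of all, with 1.87% higher and 1.64% lower in HIGH): the second FASN probe set, Ssc.25076.1.A1_at, with 2.35, 2.71 and 3.55 in HIGH and 2.14, 2.57 and 3.06 in LOW (difference 0.35 on the log2 scale, 95% interval 0.03 to 0.67, limma p = 0.0357, exact permutation p = 0.0548). Its signal was above background in 9 HIGH and 5 LOW pigs. The unadjusted p was no longer under 0.05 when HIGH pig 6, 7 or 9 or LOW pig 1, 2 or 6 was left out, or with the adipocyte marker level as a covariate.

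SCD averaged 8.80 ± 1.94 in HIGH and 7.93 ± 2.51 in LOW (SD, n = 10 and 9), a difference of 0.88 with a 95% interval of −1.10 to 2.85 (limma p = 0.367, exact permutation p = 0.409). FASN, by its brightest probe set, averaged 7.27 ± 1.10 in HIGH and 6.41 ± 1.37 in LOW, a difference of 0.86 (−0.25 to 1.97, exact permutation p = 0.150). ELOVL6 averaged 7.23 ± 1.17 in HIGH and 6.44 ± 1.68 in LOW, a difference of 0.79 (−0.49 to 2.07, exact permutation p = 0.247). Of the 10 HIGH pigs, 7 for SCD and 8 each for FASN and ELOVL6 were above the LOW mean. These 3 were the probe sets of the pathway with a mean ratio over 1.5-fold (3 of 17, against 0.888% of all probe sets higher and 0.396% lower). No test enters this count, and a probe set that varies widely between pigs passes a fold threshold more easily. The SDs of SCD, FASN and ELOVL6 ranked 3rd, 67th and 32nd of 23999. Since the 3 share their pigs and are correlated, they are not separate pieces of evidence. Without LOW pig 1 the differences were 0.24 for SCD, 0.48 for FASN and 0.44 for ELOVL6. With arrays weighted by their estimated quality in limma the differences were 1.61 for SCD, 1.17 for FASN and 1.30 for ELOVL6. The last 2 then had an unadjusted p under 0.05, as did 2933 of all 23999 probe sets, against 843 without weights. The adjusted p was 0.480 for SCD, 0.354 for FASN and 0.398 for ELOVL6.

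**Figure D4:**
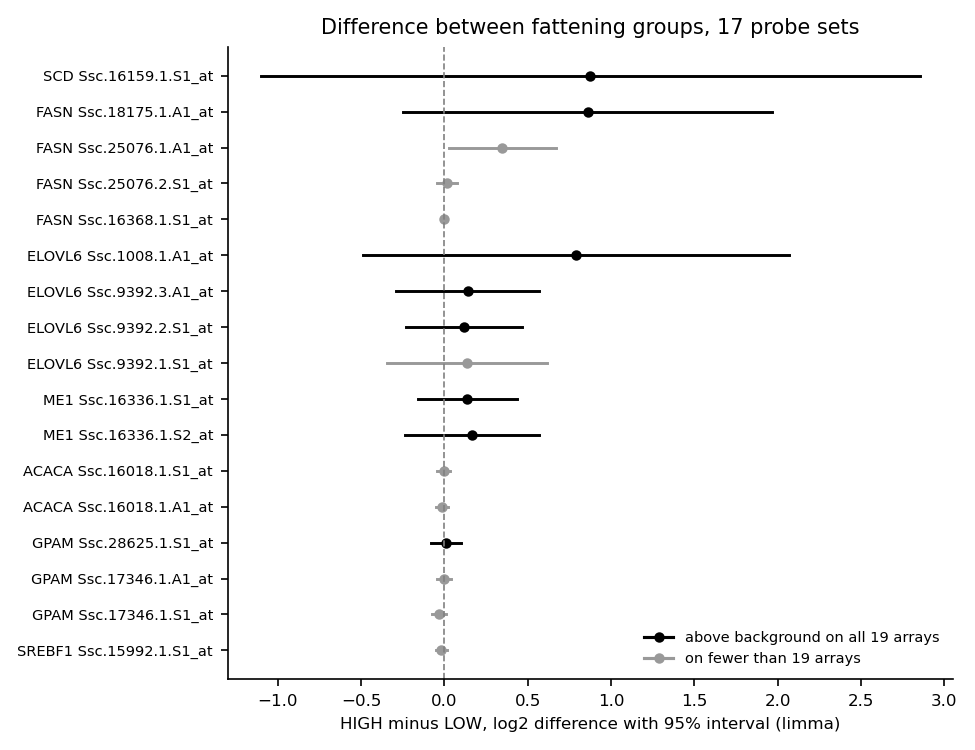
HIGH minus LOW difference in log2 signal (horizontal axis) with 95% interval for each of the 17 probe sets (rows). The interval of SCD (−1.10 to 2.85) is the widest, and only that of FASN Ssc.25076.1.A1_at (0.03 to 0.67) does not include 0.

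For the rest, ME1 differed by 0.14 (−0.16 to 0.43, limma p = 0.344) and 0.16 (−0.24 to 0.57, limma p = 0.406) in its 2 probe sets. The 3 dimmer ELOVL6 probe sets differed by 0.12 to 0.14, and without HIGH pig 6 by 0.00424 (Ssc.9392.3.A1_at), −0.041 (Ssc.9392.2.S1_at) and −0.0877 (Ssc.9392.1.S1_at). The mean was higher in HIGH for 11 of the 17 (41.3% of all probe sets), and the median difference was 0.12, against −0.0063 over all probe sets. Without HIGH pig 6 the median of the 17 was 0.00424, and with the adipocyte marker level as a covariate it was 0.00168. Because the probe sets of a gene are not independent, these counts are only descriptive.

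In the 3 dimmer ELOVL6 probe sets HIGH pig 6 was again the highest, whereas LOW pig 1, the lowest in the brightest probe set, was the lowest in none of them. Ssc.9392.3.A1_at (mean 3.78 ± 0.47 SD) was above background on all 19 arrays, with 5.06 in HIGH pig 6 and its lowest value, 2.85, in HIGH pig 10. In LOW, pig 8 had 4.32 and the others lay between 3.61 and 3.69, so the rank of LOW pig 1 there rests on nearly constant values. Ssc.9392.2.S1_at reached 4.39 in HIGH pig 6, and in LOW it lay between 2.70 and 3.22. Ssc.9392.1.S1_at was above background in only 2 pigs, HIGH pig 6 (4.42) and LOW pig 8 (2.92). Within ELOVL6 the probe sets correlated with each other with r from 0.556 to 0.946, and those of ME1 with r of 0.485. Those of FASN had r from −0.143 to 0.701. The r of 0.946 was between Ssc.9392.2.S1_at and Ssc.9392.1.S1_at, in both of which HIGH pig 6 stood apart. The other HIGH pigs lay between 2.74 and 2.86 in the first and between 2.16 and 2.23 in the second. That r is therefore not read as shared expression.

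**Figure D5:**
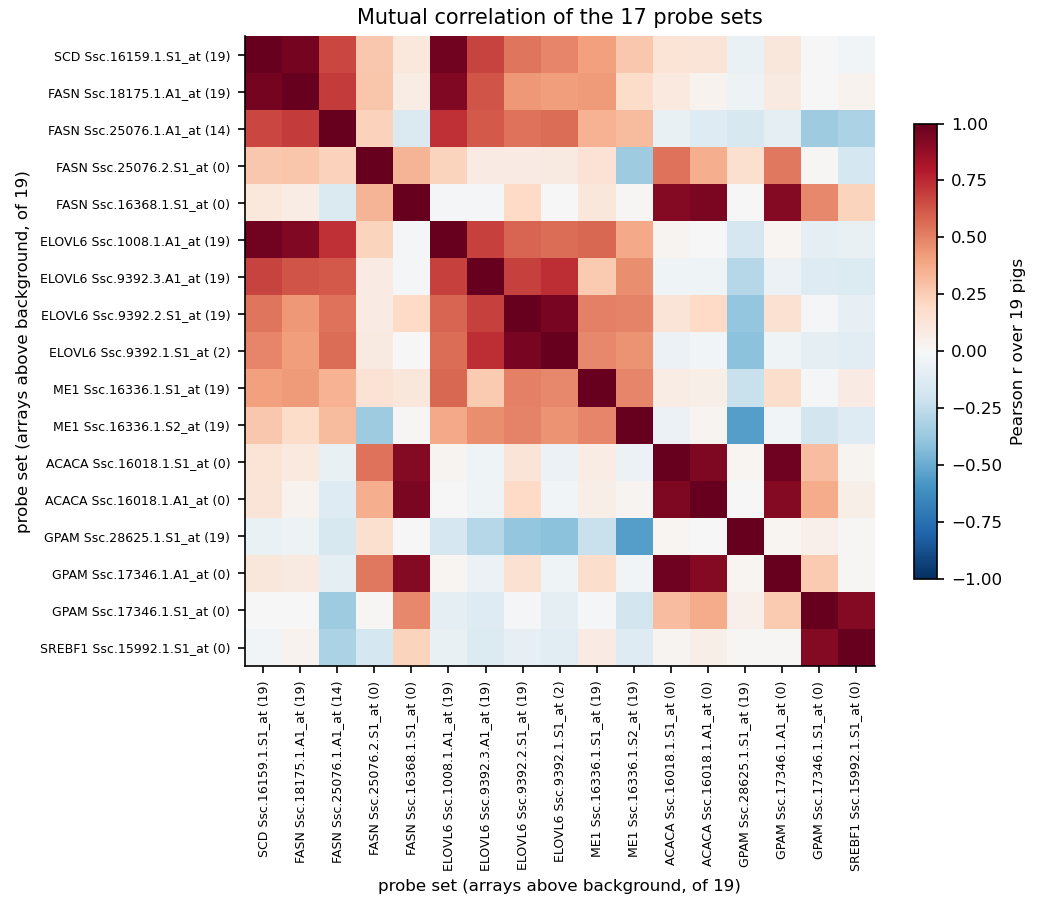
Pearson r over 19 arrays between each pair of the 17 probe sets (colour), ordered by gene. SCD, the brightest FASN and the brightest ELOVL6 probe sets have r from 0.929 to 0.962 with each other, and among the 7 probe sets that were never above background r runs from −0.172 to 0.971.

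ACACA (chromosome 12, 38580916 to 38875067), the enzyme that makes malonyl-CoA, and SREBF1 (chromosome 12, 60733967 to 60750951) were never above background. ACACA gave 2.35 ± 0.04 and 2.27 ± 0.04 in its 2 probe sets and SREBF1 gave 2.07 ± 0.04 (SD, n = 19). GPAM (chromosome 14, 122538600 to 122582390) was above background with 1 of 3 probe sets, at 3.03 ± 0.08, with 3.04 ± 0.06 in HIGH and 3.03 ± 0.11 in LOW (SD, n = 10 and 9). The other 2 GPAM probe sets and 2 of the 4 FASN probe sets stayed at background. For these, absence of a signal shows only that the probes did not exceed the controls. The 2 ACACA probe sets correlated at r = 0.934 although neither was above background, with an SD of 0.04 each, so a high r at that level is not read as shared expression. ACACA, GPAM and SREBF1, each by its brightest probe set, correlated with SCD, FASN, ELOVL6, ME1 and each other with r from −0.220 to 0.138 (permutation test, adjusted p = 0.949 each).

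The genes outside the pathway with a pattern most like a member were listed by r over the 19 arrays, as a description with no test. For SCD they were COL15A1 (0.810), a collagen of basement membranes, CDKN2C (0.785), a cell cycle inhibitor, and MGST1 (0.778), a microsomal glutathione transferase. For FASN they were TKT (0.822), transketolase of the pentose phosphate pathway, AGT (0.801), angiotensinogen, and DPT (0.798), dermatopontin of the extracellular matrix. ELOVL6 was nearest to MGST1 (0.847), DGAT2 (0.813), which completes triglyceride synthesis, and FAM149A (0.804). ME1 was nearest to SULT1A3 (0.690), FAM149A (0.643) and ALDOC (0.634), an aldolase. GPAM was nearest to MYH7 (0.818), the slow myosin heavy chain, COX5B (0.777) and NDUFA4 (0.771), both of the respiratory chain. Within HIGH these r were 0.758, 0.322 and 0.374, and within LOW 0.945, 0.959 and 0.916. The GPAM signal stayed between 2.89 and 3.24 in all pigs, so these r rest on small differences and are not read as shared expression. For ACACA and SREBF1, at background, the nearest had r of 0.975 to 0.990. These were FOXA2, FN1 and IL7 for ACACA and SERPINB1, POMT1 and ETV5 for SREBF1, and 5 of the 6, all but POMT1, were above background on at most 1 array.

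Muscle contains adipocytes, and in bulk muscle fewer such cells and less RNA per cell cannot be told apart. Of 16 listed adipocyte markers 11 had a probe set, 5 of them above background on all 19 arrays. PLIN1, PLIN4, CIDEC, AQP7 and ADIG had none, and LEP (leptin) was above background on no array. PCK1, RBP4 and CEBPA were above background on 1 array each and RETN on 2. In HIGH the summed linear signal of the 11 ranged from 2434 to 3848, and in LOW from 1691 to 3215. That sum rests mostly on FABP4 (mean log2 signal 10.6) and LPL (9.85). The mean log2 signal of the 11 was 4.70 ± 0.18 in HIGH and 4.37 ± 0.23 in LOW (SD, n = 10 and 9; exact permutation p = 0.00395). Of the 11, 9 had a higher mean in HIGH (41.3% of all probe sets did). By limma, 3 of these 9 had an unadjusted p under 0.05 (3.51% of all probe sets did), and 0 passed after adjustment over all probe sets. The 3 were FABP4, a fatty acid carrier, ADIPOQ, adiponectin, and LIPE, hormone-sensitive lipase. ADIPOQ averaged 5.19 ± 1.28 in HIGH and 3.80 ± 1.34 in LOW.

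The adipocyte marker mean correlated with ME1 (r = 0.529), ELOVL6 (0.469), FASN (0.360) and SCD (0.350), in no case past the adjustment over the 7 genes (permutation test, adjusted p = 0.101 for ME1 and ELOVL6 and 0.186 for FASN and SCD). Without LOW pigs 6 and 9, the 2 farthest from the median of the marker mean, r was 0.427 for ME1, 0.385 for ELOVL6, 0.336 for FASN and 0.284 for SCD. Within HIGH, r with that mean was −0.0276 for SCD, −0.114 for FASN and 0.051 for ELOVL6, and within LOW it was 0.511, 0.407 and 0.606; none passed the adjustment, and the difference between the groups was not tested. With it held constant, r between SCD and FASN was 0.951, between SCD and ELOVL6 0.964 and between FASN and ELOVL6 0.923. With the adipocyte mean as a covariate in limma, the HIGH minus LOW difference was −0.18 for SCD, −0.12 for ELOVL6 and 0.48 for FASN. No probe set passed the adjusted threshold in that fit. The marker mean itself differed between the groups, so group and marker level cannot be fully separated. Whether adipocyte content had a part in the differences was not tested. Of the 6 markers above background on at least 18 arrays (ADIPOQ, CIDEA, FABP4, LPL, PPARG and LIPE), only CIDEA, a lipid droplet protein, passed the adjustment over all pigs, and only in rank. It was related to all 3 in rank (rho = 0.789 with SCD, 0.860 with FASN and 0.870 with ELOVL6; permutation test, adjusted p = 9e-04, 0.00027 and 0.00027 over 18 relations), but less in r (0.478, 0.531 and 0.545; adjusted p = 0.109, 0.0896 and 0.0896). Without HIGH pigs 6 and 9 those r were 0.297, 0.349 and 0.449. PPARG, the nuclear receptor of adipocyte differentiation, had r of 0.549 with SCD, 0.565 with FASN and 0.498 with ELOVL6 (adjusted p = 0.0896 each), and 0.0990, 0.105 and 0.0171 without LOW pigs 1 and 3. Within LOW its r was 0.833 with SCD, 0.802 with FASN and 0.751 with ELOVL6 (exact permutation test, adjusted p = 0.00313, 0.0367 and 0.0526), and within HIGH it was 0.00515, 0.0801 and −0.0905; the difference between the groups was not tested. The r of LIPE was −0.286 with SCD, −0.224 with FASN and −0.116 with ELOVL6, and those of ADIPOQ, FABP4 and LPL ran from 0.182 to 0.513, none past the adjustment.

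The 3' minus 5' signal of 3 control transcripts, which grows as RNA is degraded, averaged 1.04 ± 0.12 in HIGH and 1.07 ± 0.24 in LOW (SD, n = 10 and 9; exact permutation p = 0.741). Its highest value, 1.61, was in LOW pig 1, the lowest pig for SCD, FASN and ELOVL6. Its r with FASN was −0.531 (permutation test, adjusted p = 0.178) and −0.129 without LOW pigs 1 and 6, the 2 farthest from its median. With it held constant, r was 0.958 between SCD and FASN, 0.968 between SCD and ELOVL6 and 0.963 between FASN and ELOVL6. Whether integrity had a part in the low values of LOW pig 1 was not tested.

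Around the core genes, a wider list of 41 genes of lipogenesis and its regulation had a probe set for 28, of which 23 were above background on all 19 arrays. The mean was higher in HIGH for 14 and lower for 14, and it was higher in HIGH for 41.3% of all probe sets. The median difference was 0.0029 over the 28 and −0.0063 over all probe sets. By limma, 0 passed the adjusted threshold and 3 had an unadjusted p under 0.05 (3.51% of all probe sets did). AGPAT3, an acyltransferase of phosphatidic acid synthesis, averaged 5.09 ± 0.43 in HIGH and 5.75 ± 0.27 in LOW (difference −0.66, limma unadjusted p = 0.000791). IDH1, an NADPH-producing isocitrate dehydrogenase, averaged 4.28 ± 0.55 in HIGH and 3.63 ± 0.51 in LOW, and DGAT2 averaged 6.16 ± 1.25 in HIGH and 4.84 ± 1.24 in LOW. The other genes of the 8 with the smallest p were SCD5, PGD, AGPAT1, INSIG2 and AGPAT2, with limma unadjusted p from 0.0568 to 0.234 and differences of −0.12, 0.23, 0.13, 0.24 and −0.27 in that order.

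Some of the wider list followed SCD across pigs. DGAT2 had r of 0.765 and rho of 0.742 (permutation test, adjusted p = 0.00336 over 28 relations), and r of 0.554 (adjusted p = 0.188) without HIGH pig 6 and LOW pig 1, the 2 farthest from the median of DGAT2, so it no longer passed without those pigs. PC, pyruvate carboxylase, had r of 0.663 (adjusted p = 0.0409) but rho of 0.405, and r of 0.424 (adjusted p = 0.249) without HIGH pig 10 and LOW pig 1, the 2 farthest from the median of PC. IDH1 had r of 0.582 (adjusted p = 0.0766), and 0.691 (adjusted p = 0.0515) without LOW pigs 7 and 9, the 2 farthest from its own median. In all, 5 of the 28 had r of at least 0.5 with SCD, which is 17.9%, against 1.88% of 23998 probe sets. One of the 5, MDH1, had r of 0.518, and 0.0321 without HIGH pig 6 and LOW pig 1. In the other direction, 1 of the 28 (NR1H3, −0.551) had r of −0.5 or lower, against 436 of the 23998. The shares come from unlike sets, since the 28 are the brightest probe set of each gene and the 23998 include dim ones. Why the shares differ was not tested.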

How the data were processed

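Total RNA from the LD of 19 pigs was hybridised to Affymetrix porcine arrays. The authors deposited GCRMA output, a background-corrected and normalized log2 signal for each probe set. The submitters' processing notes name GCRMA without a version. GCRMA gives dim probe sets nearly constant values, so they are read only against the tag controls. A second deposited table held 4268 of the same probe sets with identical values and was used only as a check. The number of arrays limits the precision.

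After removing 115 control probe sets from 24114, HIGH and LOW were set against each other by limma-trend (limma 3.58.1, R 4.3.3; no filter on level), with Benjamini-Hochberg adjustment over 23999 probe sets and a threshold of 0.05. The procedure was tested on simulated data. Genes were named from the platform annotation (10069 tested probe sets with 1 symbol, 198 with several, 13732 with none) and positions come from the RefSeq annotation of Sscrofa11.1. Correlations over pigs were tested by permutation, two-sided, with 100000 resamples (exact over 362880 pairings within LOW), and single differences by exact permutation, two-sided, over 92378 splits. In a list, each gene was represented by its probe set of highest mean. Alternatives were eBayes without the trend, a filter at the highest tag control mean, quantile normalization, array weights and leaving out each pig. Holding the adipocyte marker level or the 3' minus 5' signal constant, and single adipocyte markers, were chosen after seeing the data.

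Named genes were all members, the 8 of the wider list with the smallest p, the 3 genes most like each member, and the adipocyte markers. The members and lists were chosen with earlier results of these data known. The arrays of gluteus medius muscle were not analysed here.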

Additional observations from a re-analysis of the deposited data

Results flagged for a closer look

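In groups of 9 or 10 pigs, the gap of the most extreme pig to its neighbour was compared with the group's range (Dixon's criterion). It was large in 11 of 38 sets of values. About 1.9 such sets would be due to chance if the sets were independent and normally distributed. The sets share their pigs and several lie at background, so the 11 are listed without being read as an excess. LOW pig 1 was lowest in FASN Ssc.18175.1.A1_at, at 3.37, and highest in the 3' minus 5' signal, at 1.61. HIGH pig 6 was highest in ELOVL6 Ssc.9392.2.S1_at (4.39) and Ssc.9392.1.S1_at (4.42) and lowest in GPAM Ssc.28625.1.S1_at (2.89). LOW pig 8 was highest in ELOVL6 Ssc.9392.3.A1_at (4.32) and Ssc.9392.1.S1_at (2.92). The remaining 4 lay at background: FASN Ssc.25076.2.S1_at in HIGH pig 4 (2.19), ACACA Ssc.16018.1.A1_at in LOW pig 5 (2.36), and in LOW pig 6 GPAM Ssc.17346.1.S1_at (2.18) and SREBF1 Ssc.15992.1.S1_at (2.22).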

How the results depend on the processing

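The differences of SCD, FASN and ELOVL6 by their brightest probe sets kept their sign when each pig was left out, ranging from 0.244 (without LOW pig 1) to 1.29 (without HIGH pig 10) for SCD, from 0.479 (without LOW pig 1) to 1.10 (without HIGH pig 10) for FASN and from 0.443 (without LOW pig 1) to 1.05 (without LOW pig 8) for ELOVL6. Leaving out each pig turned the sign of 6 probe sets, with ranges of −0.00707 to 0.029 for FASN Ssc.25076.2.S1_at, −0.041 to 0.168 for ELOVL6 Ssc.9392.2.S1_at, −0.0877 to 0.214 for ELOVL6 Ssc.9392.1.S1_at, −0.0162 to 0.00244 for ACACA Ssc.16018.1.S1_at, −0.0102 to 0.0341 for GPAM Ssc.28625.1.S1_at and −0.0142 to 0.0063 for GPAM Ssc.17346.1.A1_at. The count of probe sets with unadjusted p under 0.05 ranged from 638 to 1638 (without HIGH pig 4), against 843. The median over the 17 probe sets ranged from 0.00424 (without HIGH pig 6) to 0.140, and that of the wider list from −0.0119 to 0.0419.

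With array weights 5 probe sets passed the adjusted threshold, against 0, none of them of the pathway. An unadjusted p under 0.05 was reached by 2933 of 23999 probe sets, against 843 without weights. Among them were 3 of the pathway (FASN Ssc.18175.1.A1_at and Ssc.25076.1.A1_at and ELOVL6 Ssc.1008.1.A1_at). The difference of SCD was 1.61, that of FASN 1.17 and that of ELOVL6 1.30, while that of GPAM Ssc.28625.1.S1_at was −0.0233. With the adipocyte marker level as a covariate the difference was −0.177 for SCD, 0.00439 for FASN Ssc.16368.1.S1_at, −0.122, −0.102, −0.128 and −0.284 for the ELOVL6 probe sets, −0.125 and −0.0205 for ME1, 0.0191 and 0.00168 for ACACA, 0.0191 for GPAM Ssc.17346.1.A1_at and 0.00278 for SREBF1. Quantile normalization gave 0.00311 for ACACA Ssc.16018.1.S1_at and 0.00618 for GPAM Ssc.17346.1.A1_at. The cause was not tested.

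Correlations of ME1 passed the threshold without HIGH pig 10 and LOW pig 1 (0.670 with SCD, 0.723 with FASN) and with the 3' minus 5' signal held (0.571 with SCD, 0.664 with FASN, 0.680 with ELOVL6). Within LOW, r with GPAM was 0.108 for SCD, 0.0815 for FASN and 0.0111 for ELOVL6. The adipocyte marker mean had r of −0.0276 with SCD and −0.114 with FASN within HIGH (0.511 and 0.407 within LOW), and of 0.158 with GPAM within LOW and 0.128 after quantile normalization. HIGH and LOW held different pigs with nothing to pair them, so no paired analysis was made. Signals near the tag controls limit what ACACA, SREBF1 and most GPAM probe sets can show.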
